A study of Mus musculus with 13 samples.

Results

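The genes described here are 10 genes of interleukin-1 (IL-1), tumor necrosis factor (TNF) and inflammasome signaling, out of 55401 gene identifiers in the deposited tables. They were chosen by symbol from a fixed list: the ligands Il1a, Il1b, Il18 and Tnf, the IL-1 receptor antagonist Il1rn, the inflammasome components Nlrp3, Pycard and Casp1, and the TNF receptors Tnfrsf1a and Tnfrsf1b. The rule itself used no measured value, but the genes were chosen with earlier results of these data known. Each symbol had a single row. The study followed loss and return of myelin in the cuprizone mouse model, in which a copper chelator mixed into the chow kills mature oligodendrocytes. Bulk RNA was sequenced from 1 snap-frozen brain hemisphere per mouse in 13 male mice, which the labels give as 6 to 8 weeks old. The 5 control mice (CTL) ate control chow for 6 weeks, the 4 cuprizone mice (CPZ) ate 0.3% cuprizone chow for 4 weeks, and the 4 recovery mice (RCV) ate cuprizone chow for 4 weeks followed by control chow for 2 weeks. The titles of all 4 RCV samples begin with Veh, which the labels do not explain, so a further treatment shared by these mice alone cannot be told apart from recovery. CPZ brains were collected at week 4 and the other brains at week 6, so treatment and time on study cannot be told apart in comparisons with CPZ.

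IL-1α and IL-1β act through the same receptor, which Il1rn blocks, and microglia are a main source of both cytokines in injured brain. NLRP3 is a cytosolic sensor that assembles with the adaptor ASC (Pycard) and caspase-1 (Casp1) into the inflammasome, which cuts the precursors of IL-1β and IL-18 into their active forms. TNF signals through the widely expressed receptor TNFR1 (Tnfrsf1a), linked to inflammation and cell death, and through TNFR2 (Tnfrsf1b), linked to survival and to the expansion of oligodendrocyte progenitors in myelin repair. Transcript levels do not show whether a precursor was cut or released.

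The libraries held 4605100 to 8197289 counts (median 6723619), and the filter on low counts left 14985 genes to test. Of the 10 genes, 7 passed it; Il1b, Il1rn and Tnf did not, Il1a passed only through its CPZ libraries, and Nlrp3 also failed when the filter was applied to CTL and RCV libraries alone. Replicates 1 and 2 of CPZ had higher levels of microglia markers than replicates 3 and 4, with a mean log2-CPM over 15 markers (microglia score) of 6.90 and 6.84 against 5.94 and 6.33. Every marker of that list rose in CPZ against CTL (15 of 15, median log2 fold change 2.19), and all 8 mature oligodendrocyte markers were called lower (median -1.47). Over all genes tested, 7.66% were called higher and 2.5% lower. Of the oligodendrocyte markers, Cnp lost its call in 10, Ermn in 9 and Mog in 1 of 24 alternative fits. In bulk tissue, fewer or more cells of a type and less or more RNA per cell cannot be told apart, and this holds for each result that follows.

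The genes lie on 7 chromosomes of the mm10 build (GENCODE M21 positions). Il1rn (chromosome 2, 24336853 to 24351494, plus strand), Il1a (129299610 to 129309972, minus strand) and Il1b (129364570 to 129371139, minus strand) share chromosome 2. Pycard lies on chromosome 7 from 127989708 to 127993867 (minus strand), and Nlrp3 on chromosome 11 from 59541568 to 59566956 (plus strand). Casp1 (5298517 to 5307265) and Il18 (50554827 to 50581840) are both on the plus strand of chromosome 9. Tnfrsf1b lies on chromosome 4 from 145213463 to 145246870 (minus strand), Tnfrsf1a on chromosome 6 from 125349362 to 125362484 (plus strand) and Tnf on chromosome 17 from 35199381 to 35202007 (minus strand). Exons of Il1a, Il1b and Pycard overlap the antisense genes Gm14023, Il1bos and Gm45205, which held at most 5, 4 and 6 counts in any library.

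Promoter stretches are shown for genes in which a search of the 250 bases before each RefSeq transcript start (build GRCm38.p6) found 1 of 3 motifs of inflammatory transcription factors, on either strand. The motifs were chosen after the values were seen: AP-1 (TGANTCA), PU.1 (GAGGAAGT) and the NF-kB site by name. Capitals mark the match, and each stretch reads 5′ to 3′ on the strand of its gene.
Il1a, chr2:129309973-129310029, minus strand, AP-1: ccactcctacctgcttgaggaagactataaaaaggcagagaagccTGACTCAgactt
Il1rn, chr2:24336674-24336770, plus strand, AP-1: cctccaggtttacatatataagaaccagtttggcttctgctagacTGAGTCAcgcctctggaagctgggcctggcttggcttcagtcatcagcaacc
Pycard, chr7:127993868-127993956, minus strand, PU.1 on the opposite strand: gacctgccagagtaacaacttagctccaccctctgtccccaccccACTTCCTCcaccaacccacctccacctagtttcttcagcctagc
Nlrp3, chr11:59541338-59541437, plus strand, NF-kB on the opposite strand: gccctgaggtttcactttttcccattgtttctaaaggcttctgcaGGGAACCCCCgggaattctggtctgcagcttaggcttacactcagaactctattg
Of the 13 windows of the 10 genes, AP-1 letters were in 2, PU.1 letters in 1 and NF-kB letters in 1. Over all 32851 windows the shares were 6.75%, 2.44% and 3.9%. A match is a description of the sequence, not evidence of a bound site.

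The IL-1 ligands and their antagonist were scarce in CTL and higher in CPZ. Il1a had counts of 5, 2, 3, 4 and 2 in CTL, 32, 25, 21 and 28 in CPZ, and 2, 5, 2 and 6 in RCV. Every CPZ library stood above every other library, while RCV and CTL overlapped. Its mean level was 0.484 ± 0.160 CPM (counts scaled by TMM to a common library total; SD, n = 5) in CTL, 3.54 ± 0.773 in CPZ (n = 4) and 0.697 ± 0.461 in RCV (n = 4). Il1a rose in CPZ against CTL by 2.80 ± 0.36 on the log2 scale (SE, adjusted p = 4.47e-05, edgeR quasi-likelihood test) and stood above RCV by 2.38 ± 0.38 (adjusted p = 0.00105). On log2(TPM + 1), a scale that understates the change of low genes, these were 1.66 and 1.49 and still called with limma.

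Il1b, the ligand matured by the inflammasome, had counts of 0, 1, 1, 1 and 1 in CTL, 3, 7, 10 and 3 in CPZ, and 1, 3, 4 and 4 in RCV. CPZ and CTL did not overlap, and RCV overlapped both. The pooled counts gave 0.764 CPM in CPZ (exact Poisson 95% interval 0.484 to 1.15), 0.123 in CTL (0.0335 to 0.315) and 0.526 in RCV (0.272 to 0.919). The CPZ to CTL ratio was 6.21 (interval 2.12 to 24.7), the RCV to CTL ratio 4.28 (1.30 to 18.2) and the CPZ to RCV ratio 1.45 (0.693 to 3.20), where the intervals cover counting error only. In an edgeR fit without the filter, Il1b was called higher in CPZ than in CTL (log2 fold change 2.47, adjusted p = 0.0327) but not in RCV against CTL (1.96, adjusted p = 0.808) or in CPZ against RCV (0.51, adjusted p = 0.791). The call against CTL was lost in 3 limma fits on TPM, with adjusted p from 0.0989 to 0.146.

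Il1rn, which encodes the secreted antagonist of the IL-1 receptor, was detected in CPZ libraries alone. It had 5, 4, 5 and 3 counts there and 0 counts in all 5 CTL and all 4 RCV libraries. The 0 counts allow up to 0.0922 CPM in CTL and 0.132 in RCV (3 counts over the group). The pooled CPZ level was 0.564 CPM (0.329 to 0.904), at least 6.12-fold above CTL and at least 4.29-fold above RCV when the CPZ value was set against 3 counts over each empty group. Without the filter, edgeR called it higher in CPZ than in CTL (adjusted p = 0.00584) and than in RCV (adjusted p = 0.0264).

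Tnf, the founding ligand of its family, was at the limit of detection. It had 0, 0, 1, 0 and 1 counts in CTL, 3, 5, 2 and 3 in CPZ, and 2, 1, 0 and 0 in RCV. Each CPZ library was above each CTL library, but RCV overlapped both groups. The CPZ to CTL ratio of pooled counts was 7.02 with an interval of 1.59 to 64.1, and the CPZ to RCV ratio was 3.28 with an interval of 0.901 to 17.9. Tnf was not called without the filter (edgeR adjusted p = 0.154 against CTL and 0.554 against RCV), and RCV and CTL were too near 0 for a ratio.

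Il18, the second cytokine cut by caspase-1, did not pass the test in any comparison. Its levels were 9.11, 9.45, 10.9, 8.71 and 8.62 CPM in CTL, 8.5, 8.63, 8.05 and 9.43 in CPZ, and 8.36, 9.23, 6.54 and 6.72 in RCV. All 3 groups overlapped. The log2 difference was -0.11 ± 0.13 in CPZ against CTL (edgeR adjusted p = 0.692), -0.27 ± 0.14 in RCV against CTL (adjusted p = 0.83) and 0.15 ± 0.14 in CPZ against RCV (adjusted p = 0.641).

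**Figure D1:**
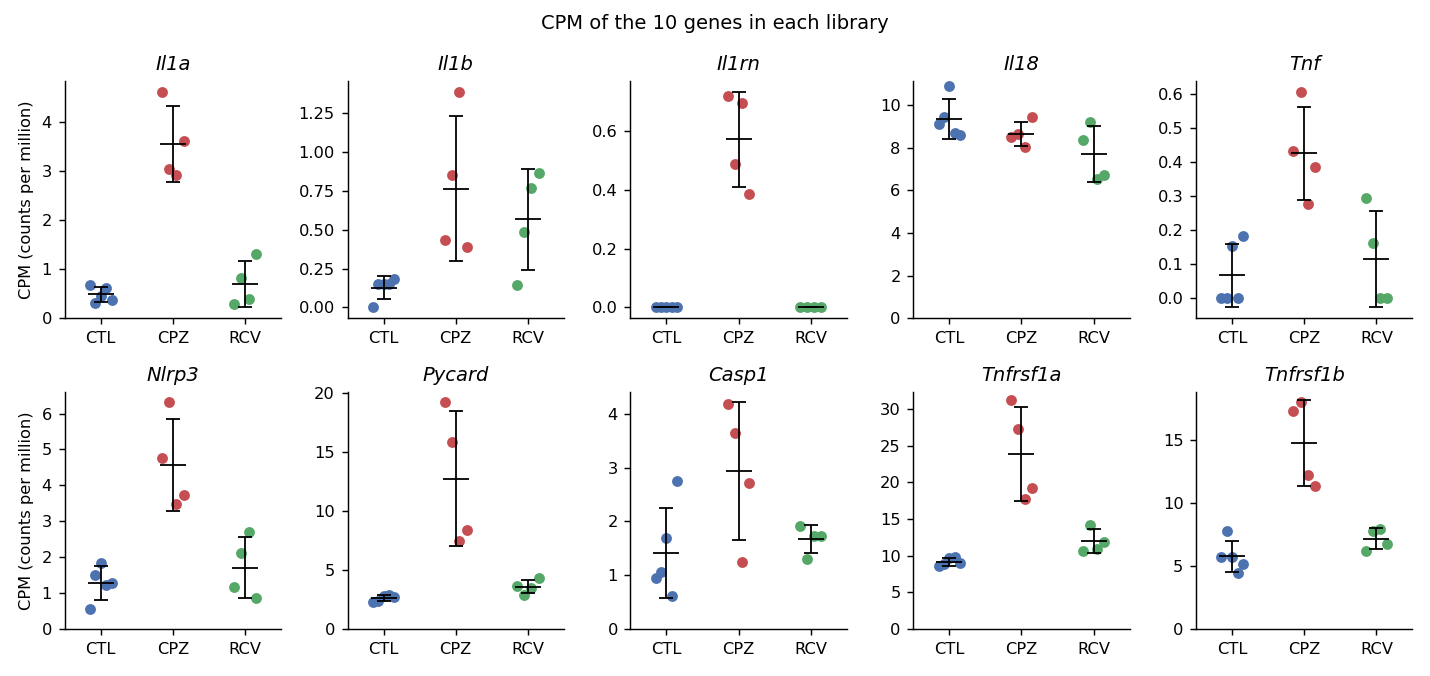
CPM (TMM-scaled counts, linear axis) of the 10 genes in each of 5 CTL, 4 CPZ and 4 RCV libraries; points are libraries and black bars the mean ± SD. Every CPZ point of Il1a, Il1rn, Nlrp3, Pycard, Tnfrsf1a and Tnfrsf1b lies above all CTL and RCV points, while the 3 groups of Il18 and of Casp1 overlap.

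Of the inflammasome genes, the sensor and the adaptor rose in CPZ and the caspase did not pass the test. Nlrp3 was at 0.544, 1.5, 1.84, 1.22 and 1.28 CPM in CTL, 4.75, 6.32, 3.47 and 3.74 in CPZ, and 1.17, 2.11, 2.69 and 0.867 in RCV. CPZ was above both other groups without overlap. Nlrp3 rose by 1.84 ± 0.33 on the log2 scale against CTL (edgeR adjusted p = 0.00126) and was 1.41 ± 0.35 above RCV (adjusted p = 0.0214). The call against RCV was lost without CPZ replicate 1 (log2 difference 1.40, adjusted p = 0.0573), CPZ replicate 2 (1.21 and 0.0861), RCV replicate 1 (1.25 and 0.0861) or RCV replicate 4 (1.23 and 0.0577), in each case at a difference close to that with all libraries. On TPM with limma, Nlrp3 was called in neither comparison (adjusted p 0.0556 to 0.0922 against CTL and 0.297 to 0.41 against RCV).

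Pycard, the adaptor ASC, was at 2.31, 2.40, 2.77, 2.90 and 2.75 CPM in CTL, 19.3, 15.9, 7.49 and 8.39 in CPZ, and 3.66, 2.92, 3.46 and 4.34 in RCV. It rose by 2.28 ± 0.27 against CTL (edgeR adjusted p = 2.01e-05) and was 1.83 ± 0.28 above RCV on the log2 scale (adjusted p = 0.000835). The CPZ libraries were uneven, with replicates 1 and 2 above replicates 3 and 4, the same order of pairs as in the microglia score; whether the marker content accounts for this was not tested. On TPM, the call against RCV was lost in 2 of 3 limma fits at larger log2 differences (2.25, adjusted p = 0.0582, and 2.01, adjusted p = 0.0936).

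Casp1, the inflammatory caspase, varied widely within CTL and CPZ. Its levels were 0.952, 1.05, 1.69, 0.612 and 2.75 CPM in CTL, 4.18, 3.65, 1.25 and 2.71 in CPZ, and 1.91, 1.30, 1.73 and 1.73 in RCV. CTL replicate 5 was above 2 CPZ libraries, and CPZ replicate 3 lay within the CTL range. The log2 difference in CPZ against CTL was 1.09 ± 0.39 (edgeR adjusted p = 0.0949) and against RCV 0.82 ± 0.41 (adjusted p = 0.303). The gene was called without CTL replicate 5 (1.45, adjusted p = 0.0259) or without CPZ replicate 3 (1.35, adjusted p = 0.0261), so a single library decided this result.

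Both TNF receptors rose in CPZ. Tnfrsf1a was at 8.56, 8.85, 9.68, 9.79 and 8.99 CPM in CTL, 31.3, 27.4, 17.8 and 19.2 in CPZ, and 10.7, 14.3, 10.97 and 11.9 in RCV. Its RCV libraries lay between the other groups, above every CTL and under every CPZ library. Tnfrsf1a rose by 1.38 ± 0.16 against CTL (edgeR adjusted p = 1.55e-05) and was 1.00 ± 0.17 above RCV on the log2 scale (adjusted p = 0.00149), a call lost in 1 of 3 limma fits on TPM (adjusted p = 0.0531). Tnfrsf1b was at 5.71, 7.80, 5.69, 4.43 and 5.13 CPM in CTL, 17.3, 18.0, 12.2 and 11.4 in CPZ, and 6.16, 7.78, 7.89 and 6.72 in RCV. RCV and CTL overlapped for Tnfrsf1b, and CPZ stood apart from both. It rose by 1.35 ± 0.18 against CTL (adjusted p = 6.61e-05) and was 1.04 ± 0.19 above RCV (adjusted p = 0.00273). The log2 TPM ratio of Tnfrsf1b to Tnfrsf1a was -1.59 ± 0.37 in CTL, -1.49 ± 0.17 in CPZ and -1.71 ± 0.38 in RCV (SD), and none of the differences passed the test (exact two-sided permutation p = 0.619, 0.635 and 0.371 for CPZ with CTL, RCV with CTL and CPZ with RCV; adjusted over 6 tests, 0.635, 0.635 and 0.557).

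The ratio of the antagonist Il1rn to Il1b was -0.49 ± 0.91 (log2 TPM ratio, SD) in CPZ, -1.51 ± 0.85 in CTL and -3.53 ± 1.20 in RCV. Because Il1rn was at 0 in CTL and RCV, those values are set by Il1b and the added 0.1 TPM, and the comparison of RCV with CTL is one of Il1b alone. The TPM of Il1b was uneven for its counts. RCV replicate 2, with the lowest ratio (-4.57), had 3 counts but 2.27 TPM, whereas CPZ replicate 3 had 10 counts and 2.35 TPM. The differences had adjusted p over the threshold (exact two-sided permutation p = 0.111 for CPZ against CTL, 0.0794 for RCV against CTL and 0.0286 for CPZ against RCV; adjusted p = 0.222, 0.222 and 0.171). The smallest p that 4 against 4 libraries can give is 0.0286, so CPZ against RCV, whose libraries did not overlap, was at that limit, and the adjusted p says nothing about whether the ratio differed.

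**Figure D2:**
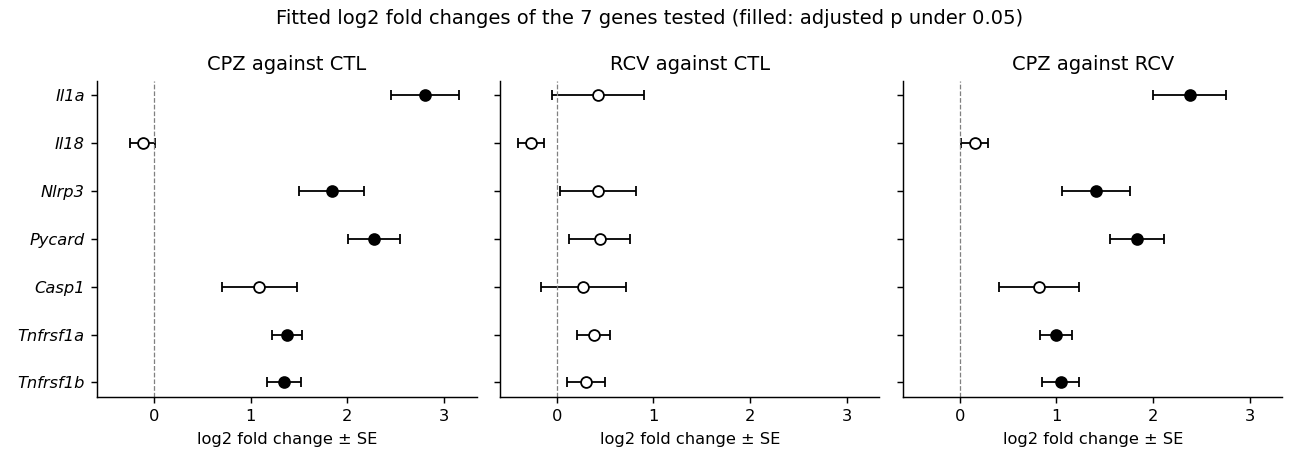
Log2 fold changes (horizontal axis, ± SE) of the 7 tested genes in the 3 comparisons, filled where the edgeR adjusted p was under 0.05. Il1a, Nlrp3, Pycard, Tnfrsf1a and Tnfrsf1b are filled and to the right of 0 for CPZ against CTL and CPZ against RCV, and no gene is filled for RCV against CTL.

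In CPZ against CTL, 5 of the 7 tested genes were called, all higher, where 7.66% of all genes tested were called higher and 2.5% lower. Their median log2 fold change was 1.38, against -0.02 over all genes. All CPZ libraries were above all CTL libraries in 8 of the 10 genes and 5 of the 7 tested, where this held for 8.25% of all genes tested. Il1a and Nlrp3 did not pass the filter without the CPZ libraries, so these 2 of the 5 calls are not independent of it, and the count is given as a description.

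In RCV against CTL, edgeR called 0 of the 7 genes, where 0.36% of all genes tested were called higher and 0.0133% lower. DESeq2 and limma-voom also called 0, and 1 gene, Tnfrsf1a, had an unadjusted p under 0.05 (log2 difference 0.38 ± 0.17, adjusted p = 0.746). The RCV libraries lay above all CTL libraries for Tnfrsf1a and Pycard, 2 of 10 genes and 2 of the 7 tested. This held for 2.21% of all genes tested. On TPM both genes overlapped between RCV and CTL, and the log2 difference of Pycard, 0.44 ± 0.31 in the fit of counts (adjusted p = 0.956), was 0.04 with limma. The remaining differences were 0.43 ± 0.48 for Il1a, 0.43 ± 0.39 for Nlrp3, 0.30 ± 0.20 for Tnfrsf1b and 0.28 ± 0.44 for Casp1. Single libraries moved the low-count genes: Il1a ranged from 0.009 without RCV replicate 4 to 0.716 without RCV replicate 1, Nlrp3 from 0.151 without RCV replicate 3 to 0.611 without RCV replicate 4, and Casp1 from 0.089 without CTL replicate 4 to 0.623 without CTL replicate 5. With all libraries thinned to the lowest total, Il1a was at 0.044 and Nlrp3 at 0.005.

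In CPZ against RCV, 5 of 7 genes were called higher in CPZ, where 5.13% of all genes tested were called higher and 1.88% lower. CPZ was above RCV in every library for 6 of the 10 genes and 5 of the 7 tested. This held for 8.26% of all genes tested. The comparison shares its CPZ libraries with the comparison against CTL. Il1a and Nlrp3 did not pass the filter without the CPZ libraries. These 2 of the 5 calls are therefore not independent of it here either, and the count is given as a description. On a scale where 0 is the CTL mean and 1 the CPZ mean of log2-CPM, the RCV libraries averaged 0.112 ± 0.285 for Il1a, 0.189 ± 0.378 for Nlrp3, 0.197 ± 0.106 for Pycard, 0.240 ± 0.126 for Tnfrsf1b and 0.278 ± 0.139 for Tnfrsf1a (SD, n = 4). For Pycard and both TNF receptors each RCV library had a value above 0, whereas Il1a and Nlrp3 each had 2 RCV libraries under 0. On log2(TPM + 0.1) the mean position of Pycard was 0.0193.

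Set beside the microglia markers, the genes separated. For Il1a and Pycard the groups overlapped: log2-CPM minus the score was -4.84 ± 0.36 in CTL and -4.58 ± 0.38 in CPZ for Il1a, and -2.93 ± 0.21 and -2.90 ± 0.26 for Pycard. The prior count of 2 in log2-CPM reduces the rise of a gene with as few counts as Il1a, whose fitted rise of 2.80 was above the median of 2.19 of the markers. The receptors rose less than the score, from -1.23 ± 0.17 in CTL to -1.94 ± 0.14 in CPZ for Tnfrsf1a and from -1.90 ± 0.24 to -2.62 ± 0.23 for Tnfrsf1b, without overlap. The single markers rose by 0.752 to 3.41, and the fitted rises of Tnfrsf1a (1.38) and Tnfrsf1b (1.35) lay within that range. A comparison with the score thus depends on the markers chosen. Casp1 was at -3.83 ± 0.69 in CTL and -4.91 ± 0.27 in CPZ, and Il18 at -1.21 ± 0.21 and -3.34 ± 0.45, also without overlap. For Casp1, with as few as 4 counts in a CTL library, the lack of overlap depends on the prior count, which raises low values. Nlrp3 overlapped, at -3.88 ± 0.54 and -4.25 ± 0.24. The score rose from 4.48 ± 0.11 in CTL to 6.50 ± 0.46 in CPZ and was 5.01 ± 0.15 in RCV. The part that the number of microglia has in these results was not tested.

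**Figure D3:**
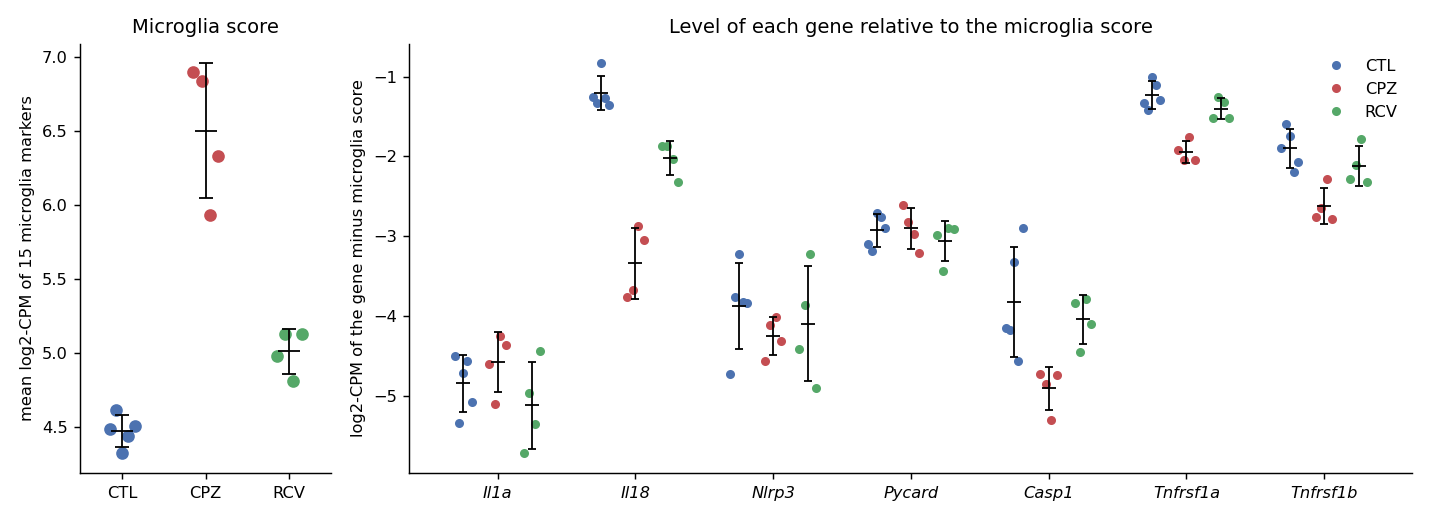
Left, mean log2-CPM of 15 microglia markers by library; right, log2-CPM of each tested gene minus that score, with points for libraries and bars for mean ± SD (5 CTL, 4 CPZ and 4 RCV). Pycard overlaps between groups (means -2.93, -2.90 and -3.06 in CTL, CPZ and RCV) while Il18 goes from -1.21 in CTL to -3.34 in CPZ.

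No marker of monocytes, neutrophils, border macrophages or T cells was called in any comparison, though few were tested. The 8 monocyte markers summed to 24.3 to 29.3 CPM in CTL, 26.6 to 32.4 in CPZ and 27.4 to 31.0 in RCV, with 2 of 8 tested and none called. The 9 neutrophil markers summed to 1.69 to 13.2 CPM in CTL and 0.576 to 2.08 in CPZ and 1.3 to 19.1 in RCV, and Ly6g, Retnlg, Camp, Ngp and Ltf were at 0 in every CPZ library, Ly6g and Camp also in every CTL library. Border macrophage markers summed to 2.99 to 7.89 CPM in CTL and 5.94 to 9.43 in CPZ, with 1 of 6 tested and not called. Of 7 astrocyte markers, 3 were called higher in CPZ against CTL (median 0.30), where this held for 7.66% of all genes tested. The summed level of the 7 was 4000 to 4470 CPM in CTL and 4130 to 4920 in CPZ, and the part of astrocytes in these results was not tested. In CPZ against RCV the red blood cell genes Hba-a2 (-0.59) and Hbb-bt (-0.91) were called lower, and the 6 choroid plexus markers, none called, had a median of 1.41 with summed levels of 617 to 2350 CPM in CPZ and 14.5 to 1430 in RCV. In RCV against CTL the endothelial Cldn5 was called lower (-0.68) and the astrocyte Aqp4 higher (0.44). Cldn5 lost this call in 9 of 24 alternative fits, 6 of which left out 1 library. Aqp4 lost it in 16 of 24, 9 of which left out 1 library. The part of these cells was not tested.

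Compared per length, Il18 was the most abundant of the 10 transcripts in the median of every group, at 27.4 TPM (counts scaled by transcript length and library total) in CTL, 24.8 in CPZ and 23.3 in RCV. In CTL the order by median was Il18, Tnfrsf1a (9.71), Pycard (4.68), Tnfrsf1b (3.10), Casp1 (1.92), Nlrp3 (0.79), Il1a (0.51), Il1b (0.26), and then Il1rn and Tnf at 0. Il18 and Tnfrsf1a stood apart from each other and from the rest there, and neighbours from Pycard down to Il1a overlapped. In CPZ the ranges of Il18, Tnfrsf1a (median 24.0) and Pycard (21.0) overlapped, and Tnfrsf1b (8.77) was next and apart from Pycard. TPM was uneven for Pycard, whose CTL libraries had 15 to 19 counts but 1.62 to 8.34 TPM. The counts per TPM unit varied 5.44-fold between libraries for Pycard, 2.94-fold for Nlrp3 and 1.13-fold for Il18, and the cause was not tested.

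**Figure D4:**
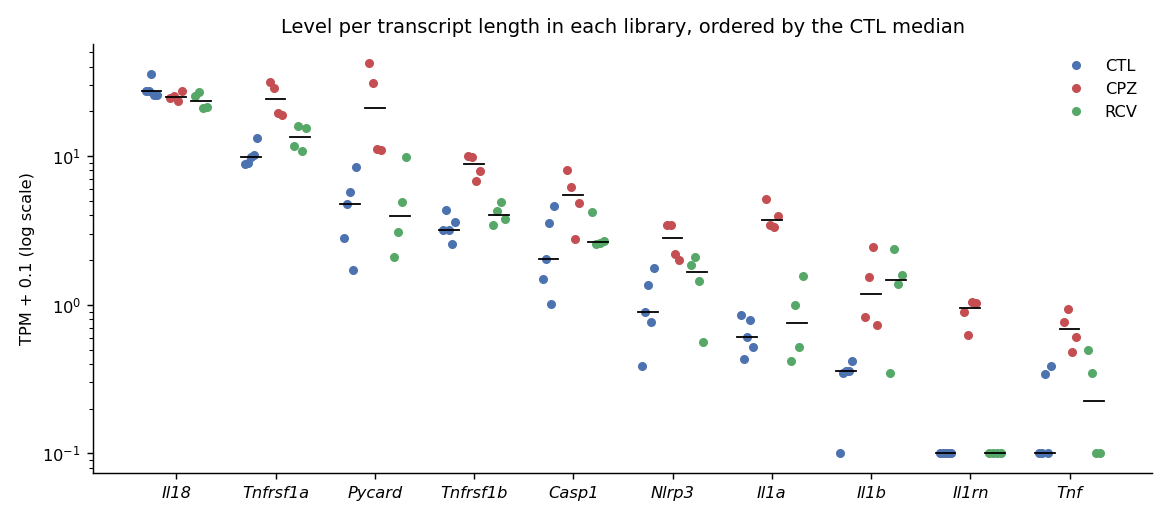
TPM plus 0.1 (log axis) of the 10 genes in each library, ordered by CTL median; points are libraries and black lines medians. Il18 is near 25 in all 3 groups, and Tnfrsf1a and Pycard reach its range in CPZ.

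Among the other genes of these pathways, 8 of 11 tested inflammasome and pyroptosis genes rose in CPZ against CTL. The list held 18 genes, its median log2 fold change was 0.83, and none fell, where 7.66% of all genes tested rose. Over 25 fits, the main one included, 3 to 11 genes of the list were called higher, with the number tested depending on the filter. The largest rises were in the NLRC4-inflammasome receptors Naip2 (3.50 ± 0.29, edgeR adjusted p = 1.1e-06), Naip5 (2.40 ± 0.28, adjusted p = 2.22e-05) and Naip6 (2.40 ± 0.36, adjusted p = 0.000254). These are near-identical paralogs whose reads the estimation may have divided between them, so their separate values are uncertain. Nlrc4 itself was under the filter and was not higher in CPZ, at 0.442 CPM on average in CTL, 0.339 in CPZ and 0.364 in RCV. Naip2 was the 1 list gene called in RCV against CTL (1.88 ± 0.33, adjusted p = 0.0203), a call lost in 9 of 23 alternative fits, 5 of which left out 1 library (CTL replicate 1, 3 or 5, or RCV replicate 1 or 2). In CPZ against RCV, 5 were called higher, where this held for 5.13% of all genes tested. They were Naip6 (1.78), Naip5 (1.76), Naip2 (1.61), the ATP receptor P2rx7 (0.59) and the redox regulator Txnip (0.48). Txnip lost its call in 16 of 24 alternative fits, P2rx7 in the 3 on TPM, and Naip2 and Naip6 in 1 each.

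Of 18 TNF signaling and cell death genes 13 were tested and 6 rose in CPZ against CTL, with a median of 0.55, where 7.66% of all genes tested rose. They were Casp8 (1.49 ± 0.28), the caspase of death receptor signaling, the ubiquitin ligase Birc3 (1.32 ± 0.25), the lymphotoxin receptor Ltbr (1.02 ± 0.16), the TNF-releasing protease Adam17 (0.66 ± 0.12), the kinase Ripk1 (0.55 ± 0.17, edgeR adjusted p = 0.0493) and the caspase-8 regulator Cflar (0.54 ± 0.10). Ripk1 lost its call in 17 of 24 alternative fits, and Birc3, Adam17 and Cflar in the 3 on TPM. None was called in RCV against CTL. Casp8 (1.04), Ltbr (0.90), Adam17 (0.55) and Cflar (0.41) were called higher in CPZ than in RCV, where this held for 5.13% of all genes tested. Of these, Casp8 lost its call in 15 of 23 and Cflar in 10 of 24 alternative fits.

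Of 16 IL-1 receptor and signaling genes 10 were tested, and in CPZ against CTL 2 rose, 1 fell and 7 were not called (median 0.16), where 7.66% of all genes tested rose and 2.5% fell. The adaptor Myd88 (0.72 ± 0.17, edgeR adjusted p = 0.00874) and the kinase Irak4 (0.93 ± 0.22, adjusted p = 0.0109) rose, though Myd88 lost its call in 5 and Irak4 in 3 alternative fits, among them the 3 on TPM. The nuclear alarmin Il33, an IL-1 family cytokine made by oligodendrocytes and astrocytes, fell by 0.80 ± 0.17 on the log2 scale (adjusted p = 0.00626), a call lost with the replicate number as a block (adjusted p = 0.0624). Against RCV, Myd88 was higher (0.77) and Il33 lower (-0.89) in CPZ, where 5.13% of all genes tested were called higher and 1.88% lower. Myd88 lost that call in 6 of 24 alternative fits. They were the 3 on TPM, the fit thinned to the lowest total, and those without CPZ replicate 1 or RCV replicate 1. No gene was called in RCV against CTL. Il1r1, the receptor for both IL-1 ligands, was not called (0.59 ± 0.20, adjusted p = 0.0781).

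All 13 NF-kB genes were tested, and 4 rose in CPZ against CTL (median 0.57), where 7.66% of all genes tested rose. They were the subunits Nfkb2 (1.33 ± 0.26), Rel (0.62 ± 0.16) and Nfkb1 (0.57 ± 0.09) and the IkB-family cofactor Bcl3 (2.69 ± 0.47, edgeR adjusted p = 0.000954). Bcl3 passed the filter on low counts only through its CPZ libraries, with at most 0.55 CPM in CTL and 1.32 in RCV. The call of Bcl3 is therefore not independent of the filter. Bcl3 lost its call in the 3 fits on TPM and Rel in 6 of 24 alternative fits, 1 of them without CPZ replicate 2. Nfkb1 alone was called higher in CPZ than in RCV (0.43), where this held for 5.13% of all genes tested, and none was called in RCV against CTL.

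**Figure D5:**
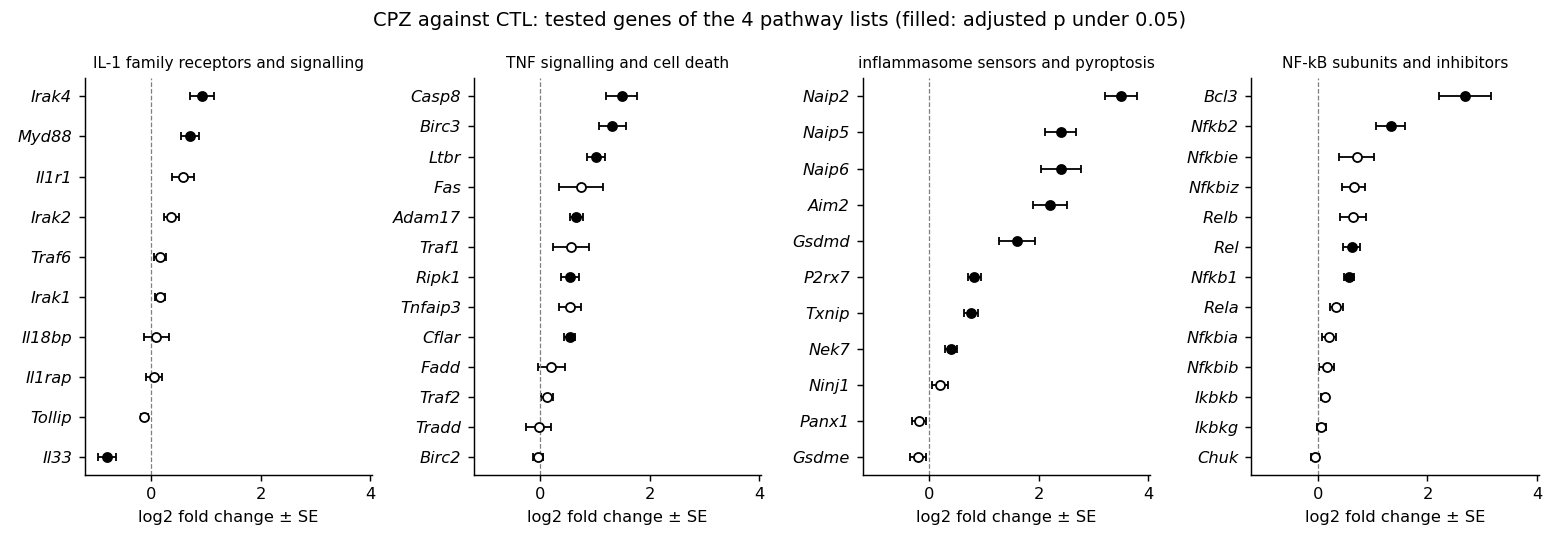
Log2 fold change in CPZ against CTL (horizontal axis, ± SE) of every tested gene of the 4 pathway lists, filled where the edgeR adjusted p was under 0.05. Naip2, Bcl3, Naip5, Naip6 and Aim2 have the largest rises, and Il33 is the 1 filled gene to the left of 0.

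Some genes of these lists were under the filter and were not tested. The caspase Casp4 was at 0.273 CPM on average in CTL, 1.47 in CPZ and 0.228 in RCV, the sensor Nlrp1b at 0.493, 2.18 and 1.07, and the IL-33 receptor Il1rl1 at 0.263, 1.66 and 0.583. For Nlrp1b and Il1rl1 all CPZ libraries were above all CTL libraries, where this held for 8.25% of all genes tested. These 3 were chosen after their values were seen. Other genes under the filter went both ways. Nlrc4, Nlrp12, Ltb, Sigirr, Irak3 and Il18r1 averaged lower in CPZ than in CTL.

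The genes whose log2-CPM followed each gene most closely over the 13 libraries are given with Pearson's r as a description; the points pool all groups and share the same libraries. For Il1a they were Tec (0.949), Ppp1r18 (0.947) and Cttnbp2nl (0.947), for Pycard Lyn (0.990), Rnase4 (0.986) and Aif1 (0.983), and for Tnfrsf1a Man2b1 (0.994), Ctsa (0.992) and Ctsd (0.992). For Tnfrsf1b they were Cebpg (0.967), Apobr (0.967) and Slco2b1 (0.964), for Nlrp3 Zfp36l1 (0.950), Gng5 (0.934) and Sox9 (0.929), for Casp1 Fmn1 (0.910), Plekha2 (0.884) and Sdcbp (0.866), and for Il18 Dnali1 (0.857), Tmem143 (0.855) and Ppil6 (0.854). Between the genes themselves r was highest for Pycard with Tnfrsf1a (0.969), while Il18 ranged from -0.126 to 0.02 with the other 6.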

How the data were processed

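The authors prepared mRNA libraries (Kapa mRNA HyperPrep, paired 50-base reads) and deposited gene-level estimated counts and TPM. Their processing notes name STAR, RSEM and mm10; their versions were not stated. The estimated counts (4.455% not whole) were rounded and tested with edgeR 4.0.16 (filterByExpr, TMM, robust quasi-likelihood fit of all 13 libraries, Benjamini-Hochberg adjustment, threshold 0.05). The deposited TPM served for comparing levels between genes. CPM is the count scaled by TMM to a common library total; log2-CPM used a prior count of 2. Gene positions came from GENCODE M21, which held 98.1% of identifiers with the same version; Casp1 was matched without its version. Promoter sequence came from RefSeq GRCm38.p6. Alternatives used DESeq2 1.42.0 and limma 3.58.1, other filters, and each library left out.

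On simulated counts for CPZ against CTL (14817 genes, 200 changed), the test recovered 96% of changes of 2 and 91% of changes of 1 on the log2 scale, and 5.08% of its calls were false. The changed genes were drawn above a minimum mean count that Il1a, Nlrp3 and Casp1 did not reach, so these shares do not cover them. Depth was 4605100 to 8197289 counts, which limits Il1b, Il1rn and Tnf to a few counts per library. Replicates are separate mice. All 10 genes are named in every comparison; of each pathway list the called genes are named (all where 6 or fewer, otherwise the 3 largest rises and falls), and for each tested gene the 3 with the highest correlation. The genes and lists were chosen with earlier results of these data known. The series text states 3 CPZ, 3 RCV and 4 CTL mice, whereas 4, 4 and 5 libraries carry these labels.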

Additional observations from a re-analysis of the deposited data

Results flagged for a closer look

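One value stood apart from its group by Dixon's test. Il1b in CTL replicate 1 was at -1.72 log2-CPM, from 0 counts where each of the other 4 CTL libraries had 1 count, with a gap of 0.85 of the group's range. Of 28 groups examined this was the 1 such value, where chance gives about 1 in 20, and a difference of 1 count is within counting error.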

How the results depend on the processing

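No called fold change of the 10 genes or of the pathway and marker genes changed direction in the fits run; the pathway and marker genes were refitted as alternatives added after seeing the data. The lists' medians were not refitted. The count of genes called in CPZ against CTL (1522) was 993 with limma on log2(TPM + 1) without a filter, and 1078 to 1680 with each library left out. In RCV against CTL (56) it was 131 with DESeq2, 16 with limma-voom, 16 with limma on log2(TPM + 1) without a filter, 20 with at least 10 counts in every library, and 21 to 87 with each library left out. In CPZ against RCV (1050) it was 584 with limma on log2(TPM + 1), 503 on log2(TPM + 0.1), 477 without a filter, and 632 to 1170 with each library left out. The position of RCV for Pycard was 0.0193 on log2(TPM + 0.1). The cause was not tested. With the replicate number as a block the counts were 1172, 42 and 755, and the block changed no call among the 7 genes. Of the pathway genes, Il33, Myd88, Ripk1 and Rel lost theirs in CPZ against CTL and Casp8, Cflar and Txnip theirs in CPZ against RCV. Of the markers, Mog, Cnp and Ermn lost theirs in CPZ against CTL, Cldn5 and Aqp4 in RCV against CTL, and Cnp and Hba-a2 in CPZ against RCV. Same-numbered libraries did not deviate together (correlations -0.199 to 0.136). Il1a and Tnfrsf1b kept their calls in both comparisons with CPZ wherever they were tested. Depth limits Il1b, Il1rn and Tnf, and the counts of 0 for Il1rn in CTL and RCV do not show absence.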
